A study of Mus musculus with 30 samples.

Results

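The genes described here are 8 markers of oligodendrocyte precursor cells and of the oligodendrocyte lineage, namely Pdgfra, Cspg4, Gpr17, Olig1, Olig2, Sox10, Enpp6 and Nkx2-2. They were chosen by name and matched through their Ensembl identifiers to rows of the table of normalized read counts. All 8 were among the 21412 genes of that table, and all 8 passed the filter on low values in every comparison. Hippocampal RNA of 30 male BALB/c mice was sequenced, with 1 library per mouse and 5 mice in each of 6 groups. Ctr mice received an unspiked purified feed, LD mice the same feed with 0.28 mg MeHg per kg and HD mice with 5 mg MeHg per kg, for 11 weeks from a juvenile age into early adulthood. The Se_Ctr, Se_LD and Se_HD groups were labelled as given selenium, and the form and amount of selenium, their MeHg dose and the length of feeding were not given in the sources used here. All mice came from 1 inbred strain. The Ctr, LD and HD mice were housed singly, and the housing of the selenium groups was not given. Neither a transgene nor a sort of cells was described, so each library held the RNA of all hippocampal cell types. The comparisons asked whether dietary MeHg, with or without selenium, went with a different level of the lineage genes.

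Oligodendrocyte precursor cells are a dividing glial population of the brain that persists in the adult. They carry the receptor PDGFRA, which binds platelet-derived growth factor, and the proteoglycan NG2, encoded by Cspg4, at their surface. When they leave the cell cycle they pass through a committed stage marked by the receptor GPR17 and a newly formed stage marked by the enzyme ENPP6 before they make myelin. The transcription factors OLIG1, OLIG2, SOX10 and NKX2-2 act at several of these steps, and SOX10 and the OLIG factors remain present in mature oligodendrocytes. Methylmercury is a neurotoxic form of mercury that crosses the blood-brain barrier.

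None of the 8 genes was called different in any comparison between groups. With limma, where a call needed an unadjusted p under 0.05 in the contrast and also in the F test of its fit, 0 of 8 were called in HD against Ctr, where 5.09% of all genes were called, and 0 of 8 in LD against Ctr, where 1.46% were called. In the selenium groups 0 of 8 were called in Se_LD against Se_Ctr (1.46% of all genes) and 0 of 8 in Se_HD against Se_Ctr (2.06%). The counts were also 0 of 8 for HD against LD (4.49%), Se_HD against Se_LD (2.47%), Se_Ctr against Ctr (1.3%), Se_LD against LD (0.73%), Se_HD against HD (3.59%) and the interactions of selenium with LD (1.09%) and with HD (2.38%). At a Benjamini-Hochberg adjusted p under 0.05 the count was 0 of 8 in each of the 11 comparisons, with 0.13% of all genes called in HD against Ctr, 0.0499% in HD against LD, 0.327% in Se_HD against HD and 0.0% in the others. The F test over all 6 groups called 0 of 8 at an unadjusted p under 0.05, against 6.91% of all genes (0.444% at an adjusted p under 0.05, again with 0 of 8). A count of 0 of 8 is near these background shares and is no result about the 8 genes. Of the 88 member tests, 4 had an unadjusted limma p under 0.05, and all 4 were of Gpr17. By the contrast p alone Gpr17 was 1 of 8 in HD against LD (6.96% of all genes), Se_LD against Se_Ctr (3.31%), Se_LD against LD (2.86%) and the interaction of selenium with LD (3.75%). The count was 0 of 8 in LD against Ctr (3.01%), HD against Ctr (8.34%), Se_HD against Se_Ctr (4.19%), Se_HD against Se_LD (4.94%), Se_Ctr against Ctr (4.0%), Se_HD against HD (8.38%) and the interaction with HD (4.77%). edgeR and DESeq2 on the recovered reads also gave 4 of 88 each and likewise called 0 of 8 by both rules in every comparison.

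Depth was between 5768208 and 11510521 reads on genes per library. All 10 marker genes of hippocampus tissue were present in every library, from 51.8 normalized counts for C1ql2 to 6467 for Zbtb20. The median log2 difference over all genes lay between -0.01 and 0.01 in each comparison of 2 groups. Other glial markers did differ in the HD group: 12 of 12 microglia markers were called higher in HD than in Ctr, 7 of them at an adjusted p under 0.05, and 5 of 10 astrocyte markers were called higher, 1 of them at an adjusted p under 0.05, with all 10 differences positive. The summed level of the microglia markers was between 3057 and 3271 normalized counts in Ctr and between 3944 and 9525 in HD, with no marker at 0. Choroid plexus markers ranged widely inside the groups, with Ttr between 96.3 and 34026 normalized counts over the 30 mice. Their median log2 difference from Ctr was 0.56 in LD (9 of 10 positive) and 1.42 in HD (10 of 10 positive). Against Se_Ctr it was -0.97 in Se_LD (0 of 10 positive) and 0.75 in Se_HD (10 of 10 positive). In these comparisons 0 of 10 were called, where 1.46% to 5.09% of all genes were called. The part of these cell types in the values of the lineage genes was not tested. In bulk tissue, fewer cells of a type and less RNA per cell cannot be told apart.

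The genes lie at separate places of the NCBIM37 mouse build, except for Olig1 and Olig2, which neighbour each other on the plus strand of chromosome 16. Olig2 spans chr16:91225795-91228922 and Olig1 chr16:91270014-91272184, with 41091 bases between them. Pdgfra spans chr5:75548316-75594229 and Cspg4 chr9:56712911-56747677, both on the plus strand and without an overlapping gene. Enpp6 spans chr8:48072279-48180249 on the plus strand, overlapping 4930579M01Rik of the other strand, for which no value was used here, and Sox10 chr15:78985343-78994920 on the minus strand. Nkx2-2, on the minus strand at chr2:147003282-147019979, overlaps 2 non-coding genes of the other strand, Nkx2-2as and 6430503K07Rik, which had means of only 0.378 and 2.20 normalized counts. Gpr17, on a minus strand, overlaps Lims2 on the other strand, a gene with a mean of 56.6 normalized counts against 533 for Gpr17. The library kit keeps the strand, but whether the counting used it is not stated in the sources used here, so reads of Gpr17 and Lims2 in the shared stretch may not be fully separated.

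The 250 bases before the annotated start of 3 of the genes are shown, because Cspg4 and Olig2 formed a pair that varied together. The neighbours Olig1 and Olig2 formed no such pair over all 30 mice. Their Pearson r was -0.12 among the 15 mice of Ctr, LD and HD and 0.56 among the 15 selenium mice. The sequences are those of the NCBIM37 reference, not of BALB/c, and are written 5′ to 3′ on the strand of the gene. Capitals mark matches to CANNTG, the E-box bound by factors of the OLIG family, and to ACAAAG or ACAATG, core words of SOX factors, searched on both strands. The windows are chr9:56712661-56712910 for Cspg4, chr16:91225545-91225794 for Olig2 and chr16:91269764-91270013 for Olig1, all on the plus strand.
Cspg4: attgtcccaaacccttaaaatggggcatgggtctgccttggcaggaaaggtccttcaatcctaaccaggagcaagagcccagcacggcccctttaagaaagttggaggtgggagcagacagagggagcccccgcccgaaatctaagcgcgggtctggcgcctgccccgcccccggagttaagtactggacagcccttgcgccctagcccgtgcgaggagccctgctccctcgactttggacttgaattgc
Olig2: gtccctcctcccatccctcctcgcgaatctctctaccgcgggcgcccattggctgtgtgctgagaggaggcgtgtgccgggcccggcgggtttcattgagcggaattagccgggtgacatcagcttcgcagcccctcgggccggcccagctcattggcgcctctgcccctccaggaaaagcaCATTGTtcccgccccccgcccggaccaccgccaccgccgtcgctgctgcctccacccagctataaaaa
Olig1: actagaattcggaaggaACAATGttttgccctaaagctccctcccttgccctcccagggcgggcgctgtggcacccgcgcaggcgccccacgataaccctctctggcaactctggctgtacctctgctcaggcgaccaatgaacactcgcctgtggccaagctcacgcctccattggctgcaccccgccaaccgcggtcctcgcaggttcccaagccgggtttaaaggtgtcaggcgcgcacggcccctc
The 3 windows were rich in G and C, at 60.4% in Cspg4, 66.8% in Olig2 and 63.6% in Olig1. The word ACAATG, on either strand, lay 1 time in the window of Olig1 and 1 time in that of Olig2, and 9.09% of 22380 such windows held it. CANNTG, which 63.5% of all windows held, and ACAAAG, which 15.4% held, matched in none of the 3. The window of Cspg4 held none of the words, so that it shared none with Olig2. Among windows that are not shown, CANNTG matched 2 times in that of Pdgfra, 3 times in that of Gpr17 and 2 times in that of Nkx2-2, ACAAAG matched 1 time in that of Gpr17, and that of Enpp6 held none of the words. A match is a description of the letters in this window and not a bound site.

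Levels were compared between genes as normalized read counts per kb of exon, averaged over the 30 mice. Olig1 was highest at 124 ± 29.4 (SD, n = 30), followed by Gpr17 at 103 ± 13.5 and Pdgfra at 76.2 ± 7.84. Olig2 and Sox10 lay below them, at 63.0 ± 15.9 and 51.0 ± 9.79 per kb. Cspg4 reached 20.8 ± 3.13, Enpp6 11.7 ± 3.18 and Nkx2-2 5.01 ± 1.45 per kb. The lower end of this order held in every mouse, since Sox10 exceeded Cspg4, Cspg4 exceeded Enpp6 and Enpp6 exceeded Nkx2-2 in 30 of 30 libraries. The upper end was less firm, with Olig1 above Gpr17 in 22 of 30 libraries, Pdgfra above Olig2 in 23 and Olig2 above Sox10 in 24, while Gpr17 exceeded Pdgfra in 28. The standard deviations of these upper neighbours overlapped, apart from Gpr17 and Pdgfra.

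**Figure D1:**
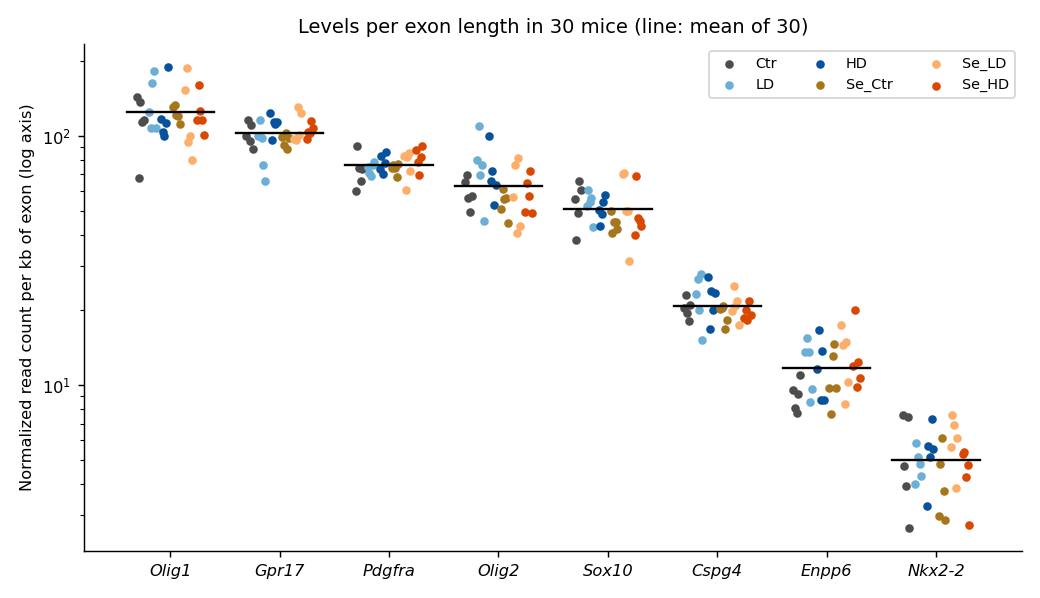
Normalized read count per kb of exon (log axis) of the 8 genes in the 30 mice, coloured by group, with the mean of all mice as a line. The range of the means runs from 124 per kb for Olig1 to 5.01 per kb for Nkx2-2, and the groups lie over each other in every gene.

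Counting precision differed between the genes. Nkx2-2 rested on 6 to 26 reads per library and Enpp6 on 21 to 97, so that single mice of these genes carry a large counting error. Gpr17 had 276 to 720 reads and Pdgfra 335 to 779. Over the 30 mice the coefficient of variation was lowest in Pdgfra, at 10.3%, and in Gpr17, at 13.2%. It was 23.7% in Olig1 and 25.3% in Olig2, which had enough reads that counting alone gives far less. The median over the 8 genes of the variation inside a group was 8.16% in Se_Ctr and 25.7% in Se_LD, with 15.1% in Ctr, 22.5% in LD, 21.5% in HD and 17.4% in Se_HD.

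**Figure D2:**
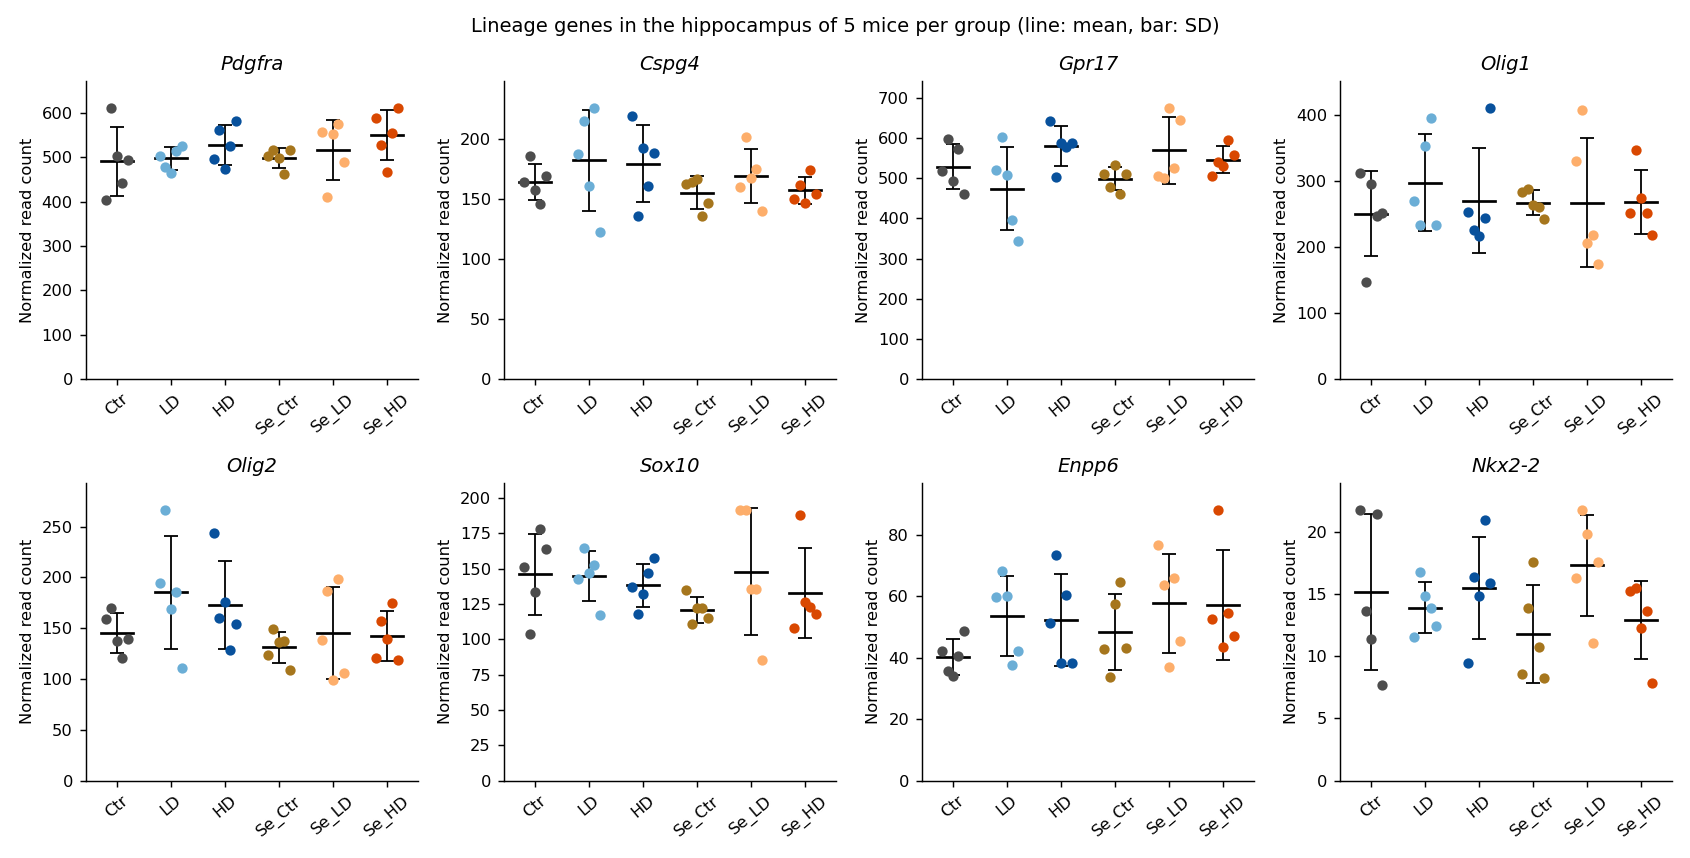
Normalized read counts (linear axis from 0) of each gene in each of the 5 mice of the 6 groups, with the group mean as a line and the SD as a bar. In none of the 8 genes do 2 groups separate, and single mice stand apart in some groups, as for Olig1 in HD, where 1 mouse lies at 409.9 and the other 4 between 216 and 253.

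For the genes of surface molecules of precursor cells, Pdgfra and Cspg4, the mice of the dose groups overlapped. Pdgfra, the receptor that drives their division, was at 491 ± 77.9 (SD, n = 5) normalized counts in Ctr, 497 ± 26.0 (SD, n = 5) in LD and 528 ± 44.9 (SD, n = 5) in HD. Its log2 difference from Ctr was 0.03 (SE 0.10, 95% interval -0.19 to 0.25; limma unadjusted p = 0.772, adjusted p = 0.999, exact permutation p = 0.778) in LD. In HD it was 0.11 (SE 0.10, 95% interval -0.10 to 0.33; limma unadjusted p = 0.29, adjusted p = 0.845, exact permutation p = 0.341). All LD and HD values lay inside the range of the Ctr mice, which was set by 1 mouse at 405 and 1 at 611. The selenium groups gave 499 ± 22.6 (SD, n = 5) in Se_Ctr, 517 ± 68.2 (SD, n = 5) in Se_LD and 549.9 ± 56.1 (SD, n = 5) in Se_HD. The 5 Se_HD mice were at 589, 527, 467, 555 and 611, and the 5 Se_Ctr mice at 502, 516, 498, 461 and 517. Of the Se_HD mice 4 exceeded every Se_Ctr mouse and 1 lay among them, and the log2 difference was 0.13 (SE 0.09, 95% interval -0.05 to 0.32; limma unadjusted p = 0.145, adjusted p = 1, exact permutation p = 0.103). Pdgfra is also made by fibroblasts of the meninges, whose markers are described with it further on.

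Cspg4, whose proteoglycan is found on precursor cells and also on pericytes, was at 164 ± 14.8 (SD, n = 5) in Ctr, 182 ± 42.0 (SD, n = 5) in LD and 179 ± 32.0 (SD, n = 5) in HD. The LD mice spread from 122 to 225 and the HD mice from 136 to 219, wider than the Ctr mice at 145 to 185. The log2 differences from Ctr were 0.12 in LD (95% interval -0.21 to 0.45) and 0.11 in HD (-0.22 to 0.44). With single mice left out they ran from 0.03 to 0.26 in LD and from 0.03 to 0.21 in HD. The selenium groups held 155 ± 13.5 (SD, n = 5) in Se_Ctr, 169 ± 22.6 (SD, n = 5) in Se_LD and 157 ± 11.1 (SD, n = 5) in Se_HD. Against Se_Ctr the log2 difference was 0.12 in Se_LD and 0.02 in Se_HD, with exact permutation p of 0.27 and 0.794.

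Gpr17, the receptor of the committed stage, gave the only unadjusted p under 0.05. In LD its mean was the lowest of the 6 groups, at 474 ± 104 (SD, n = 5), and in HD the highest, at 579.7 ± 50.05 (SD, n = 5). The 5 LD mice were at 519.9, 603, 508, 395 and 343 and the 5 HD mice at 642, 502, 588, 579 and 588. The 5 Ctr mice were at 519, 599, 494, 574 and 460.3. LD replicates 4 and 5 lay below every other LD, Ctr and HD mouse, while replicates 1 and 3 were within the range of Ctr and replicate 2 was just above its highest mouse, so that the groups overlapped. HD exceeded LD by a log2 difference of 0.31 (SE 0.13, 95% interval 0.04 to 0.58; limma unadjusted p = 0.0245, adjusted p = 0.602, exact permutation p = 0.103). LD differed from Ctr by -0.18 (SE 0.13, 95% interval -0.45 to 0.09; limma unadjusted p = 0.177, adjusted p = 0.999, exact permutation p = 0.341). HD differed from Ctr by 0.13 (SE 0.13, 95% interval -0.14 to 0.40; limma unadjusted p = 0.316, adjusted p = 0.856, exact permutation p = 0.198).

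In the selenium groups the order of LD and control was the opposite for Gpr17. The 5 Se_LD mice were at 505, 501, 675, 525 and 644, and the 5 Se_Ctr mice at 512, 477, 532, 461 and 509.7. The 5 Se_HD mice were at 506, 540.2, 531, 596 and 559. Se_LD replicates 3 and 5 stood above all Se_Ctr and Se_HD mice, and the other 3 lay among the Se_Ctr mice. Se_LD exceeded Se_Ctr by 0.18 (SE 0.08, 95% interval 0.01 to 0.36; limma unadjusted p = 0.0412, adjusted p = 1, exact permutation p = 0.135). Se_HD exceeded Se_Ctr by 0.13 (SE 0.08, 95% interval -0.04 to 0.31; limma unadjusted p = 0.13, adjusted p = 1, exact permutation p = 0.0556), the lowest exact p of the 72 computed. Between the diets, Se_LD exceeded LD by 0.28 (SE 0.11, 95% interval 0.06 to 0.51; limma unadjusted p = 0.0165, adjusted p = 1, exact permutation p = 0.135). The interaction of selenium with LD was 0.36 (0.04 to 0.69; limma unadjusted p = 0.0277, adjusted p = 0.998). The interaction with HD was -0.00 (-0.32 to 0.32). None of these contrasts counted as a call, since the F test did not pass in the fit of Ctr, LD and HD (limma unadjusted p = 0.0737), in that of the selenium groups (0.104) or over all 6 groups (0.0732). Leaving out single mice moved these values in both directions. Without LD replicate 5 the unadjusted limma p was 0.0987 for HD against LD (0.21), 0.108 for Se_LD against LD (0.17) and 0.0866 for the interaction (0.26), and LD against Ctr was -0.07. It was also above 0.05 for HD against LD without LD replicate 4 or HD replicate 1, and for Se_LD against LD without LD replicate 4 or Se_LD replicate 3 or 5. For the interaction it was above 0.05 without Ctr replicate 2 or 4, LD replicate 4 or Se_LD replicate 3 or 5. For Se_LD against Se_Ctr it was above 0.05 without Se_Ctr replicate 2, 4 or 5 or Se_LD replicate 3 or 5, with 0.12 (limma unadjusted p = 0.155) without Se_LD replicate 3. Leaving out LD replicate 2, the highest of that group, instead brought Gpr17 past the call rule in LD against Ctr (-0.27), HD against LD (0.41), Se_LD against LD (0.38) and the interaction (0.46). The same rule was met for HD against LD without HD replicate 2 (0.37) and for Se_LD against Se_Ctr without Se_LD replicate 2 (0.23).

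**Figure D3:**
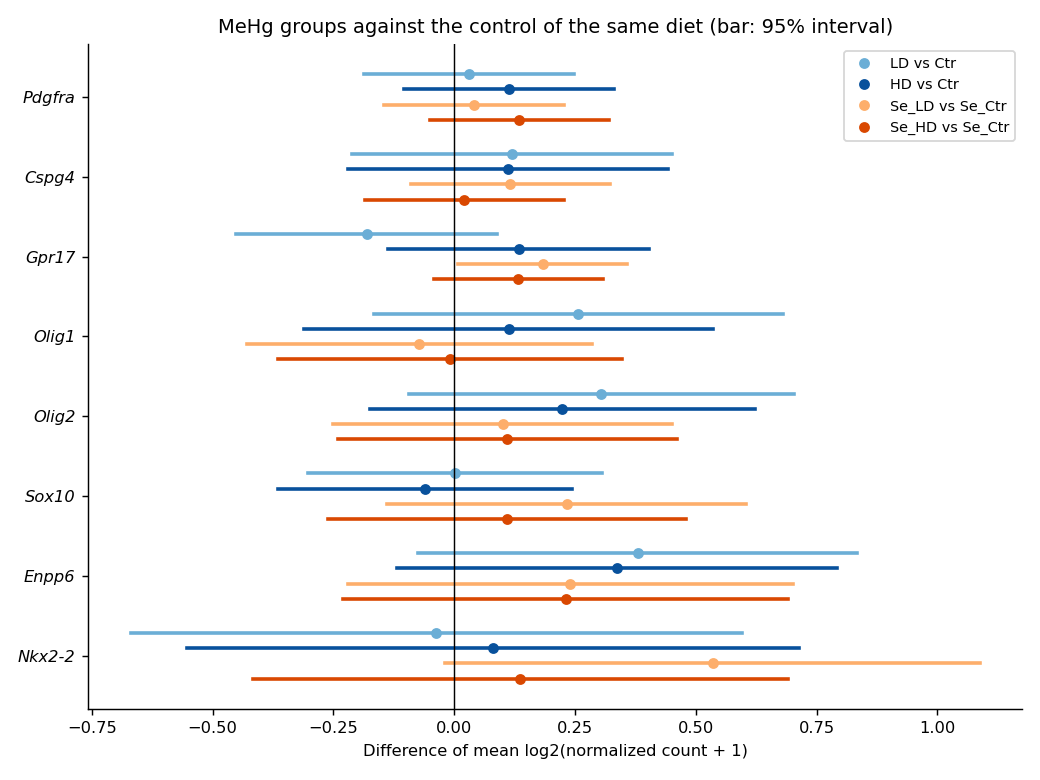
Log2 difference (point) with its 95% interval (bar) of each MeHg group from the control of the same diet, for the 8 genes. Of the 32 intervals, that of Gpr17 in Se_LD against Se_Ctr is the only one without 0, from 0.01 to 0.36, and the intervals are widest in Nkx2-2, the gene with the fewest reads.

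Among the transcription factors, Olig2, which specifies the lineage, had its highest means in LD, at 185 ± 55.9 (SD, n = 5), and HD, at 172 ± 43.2 (SD, n = 5), against 145 ± 19.6 (SD, n = 5) in Ctr. The 5 LD mice were at 195, 267, 169, 186 and 111, and the 5 Ctr mice at 159, 170.1, 137, 121 and 139. Of the LD mice 3 were above every Ctr mouse, 1 was within their range and 1, replicate 5, was below all of them. The log2 difference was 0.30 (SE 0.19, 95% interval -0.09 to 0.70; limma unadjusted p = 0.127, adjusted p = 0.999, exact permutation p = 0.23) in LD. Without LD replicate 5 it was 0.47 (limma unadjusted p = 0.0124, adjusted p = 0.999), which meets the unadjusted call rule, and without LD replicate 2, the highest of the group, it was 0.16 (limma unadjusted p = 0.395). The HD mice were at 243, 160.0, 176, 129 and 154, and their difference from Ctr was 0.22 (SE 0.19, 95% interval -0.18 to 0.62; limma unadjusted p = 0.257, adjusted p = 0.827, exact permutation p = 0.246). Se_LD mice were lower than LD mice by a log2 difference of -0.35 (SE 0.19, 95% interval -0.74 to 0.04; limma unadjusted p = 0.0756, adjusted p = 1, exact permutation p = 0.27). This difference also met the call rule without LD replicate 5, at -0.52 (limma unadjusted p = 0.00807). In the selenium groups Olig2 was at 131 ± 15.3 (SD, n = 5) in Se_Ctr, 145 ± 45.5 (SD, n = 5) in Se_LD and 142 ± 24.2 (SD, n = 5) in Se_HD, and neither MeHg group stood apart from Se_Ctr (log2 differences 0.10 and 0.11).

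Olig1, its neighbour and paralog, which acts in maturation, was at 250.2 ± 64.5 (SD, n = 5) in Ctr, 297 ± 73.5 (SD, n = 5) in LD and 269.7 ± 79.7 (SD, n = 5) in HD. Single mice decided the spread. The Ctr mice were at 312, 146, 296, 247 and 251, with replicate 2 far below the other 4, and the HD mice at 253, 225, 216, 244 and 409.9, with replicate 5 far above. The log2 difference from Ctr was 0.26 in LD (-0.17 to 0.68) and 0.11 in HD (-0.31 to 0.54), and the LD value was 0.08 without Ctr replicate 2 and 0.15 without LD replicate 4. The HD value turned to -0.05 without HD replicate 5 and to -0.07 without Ctr replicate 2. The 3 selenium groups had nearly equal means, 267 ± 18.8 (SD, n = 5), 267 ± 97.9 (SD, n = 5) and 268 ± 48.0 (SD, n = 5). The Se_LD mice, at 330.3, 406, 206, 217 and 174, spread most, and the Se_Ctr mice, at 283, 288, 263, 259.9 and 242, spread least.

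Sox10, which is needed for the terminal steps and for myelin gene expression, was at 146 ± 28.8 (SD, n = 5) in Ctr, 145 ± 17.6 (SD, n = 5) in LD and 138 ± 15.2 (SD, n = 5) in HD. The log2 difference from Ctr was 0.00 in LD (-0.30 to 0.31) and -0.06 in HD (-0.36 to 0.24). The Se_Ctr mice, at 135, 111, 122, 122 and 115, were lowest on average. The Se_LD mice were at 191, 192, 136, 135 and 85.2, so that 4 of them exceeded every Se_Ctr mouse, the third and the fourth only narrowly, and replicate 5 was below all. The log2 difference of Se_LD from Se_Ctr was 0.23 (SE 0.18, 95% interval -0.14 to 0.60; limma unadjusted p = 0.206, adjusted p = 1, exact permutation p = 0.302), and without Se_LD replicate 5 it was 0.41 (limma unadjusted p = 0.0109, adjusted p = 1), past the call rule, whereas it was 0.12 without Se_LD replicate 1 or 2. In Se_HD the values were 108, 188, 127, 123 and 118, with replicate 2 apart from the other 4, and the difference from Se_Ctr was 0.11 (-0.26 to 0.48).

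Nkx2-2, which works with OLIG2 at the onset of differentiation, was near the limit of this depth. The Se_LD mice were at 16.2, 21.7, 19.8, 11.1 and 17.6 normalized counts and the Se_Ctr mice at 8.55, 13.8, 17.6, 10.8 and 8.27. Se_LD replicates 2 and 3 were above every Se_Ctr mouse, and replicate 5 was level with the highest of them. This gave the largest log2 difference of the 8 genes in the 4 comparisons of a MeHg group with its control, 0.53 (SE 0.27, 95% interval -0.02 to 1.09; limma unadjusted p = 0.0574, adjusted p = 1, exact permutation p = 0.0714). In Ctr, LD and HD the means were 15.2 ± 6.23 (SD, n = 5), 13.9 ± 2.05 (SD, n = 5) and 15.5 ± 4.10 (SD, n = 5), with log2 differences from Ctr of -0.04 (-0.67 to 0.60) and 0.08 (-0.55 to 0.71). The intervals of Nkx2-2 were the widest of the 8 genes in these comparisons.

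Enpp6, the choline phosphodiesterase of newly formed oligodendrocytes, had its lowest mean in Ctr, at 40.2 ± 5.77 (SD, n = 5). The 5 Ctr mice were at 42.3, 35.7, 34.0, 40.6 and 48.6. The 5 LD mice were at 59.6, 68.2, 60.0, 37.6 and 42.3, and the 5 HD mice at 51.1, 73.5, 38.4, 60.3 and 38.3. In LD as in HD, 3 mice exceeded every Ctr mouse and 2 were within the Ctr range. The log2 difference was 0.38 (SE 0.22, 95% interval -0.07 to 0.83; limma unadjusted p = 0.0969, adjusted p = 0.999, exact permutation p = 0.0794) in LD. It was 0.34 (SE 0.22, 95% interval -0.12 to 0.79; limma unadjusted p = 0.138, adjusted p = 0.75, exact permutation p = 0.143) in HD, measured against the same Ctr mice. Without LD replicate 4, LD reached 0.50 (limma unadjusted p = 0.0377), which was not a call since the F test over the 3 groups did not pass. The selenium groups ranked Se_Ctr lowest as well, at 48.3 ± 12.4 (SD, n = 5), with 57.7 ± 16.2 (SD, n = 5) in Se_LD and 57.2 ± 17.8 (SD, n = 5) in Se_HD. Their log2 differences from Se_Ctr were 0.24 (-0.22 to 0.70) and 0.23 (-0.23 to 0.69). In Se_HD replicate 2, at 88.1, was the highest of all 30 mice.

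Across the list, 6 of 8 differences were positive in LD, 7 of 8 in HD, 7 of 8 in Se_LD and 7 of 8 in Se_HD, each against the control of the same diet. The median log2 difference of the 8 genes was 0.08 in LD, 0.11 in HD, 0.15 in Se_LD and 0.12 in Se_HD, and over all genes tested it was 0.00, 0.01, 0.00 and -0.01 in the same order. LD and HD share the Ctr mice, and Se_LD and Se_HD the Se_Ctr mice, so these counts are not independent. Against LD, HD was higher in 3 of 8 genes (median -0.03), and Se_Ctr was higher than Ctr in 3 of 8 (median -0.08). In none of the 72 pairs of gene and groups did the 5 mice of one group separate from the 5 of the other. Among all genes 0.399% did so in LD against Ctr, 1.71% in HD against Ctr, 1.34% in HD against LD, 0.503% in Se_LD against Se_Ctr, 0.798% in Se_HD against Se_Ctr and 0.716% in Se_HD against Se_LD. Between diets it was 0.73% in the controls, 0.355% in the LD groups and 1.5% in the HD groups. None of the 72 exact permutation tests was under 0.05, the smallest p they can give being 0.00794.

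The other genes of the lineage were examined as lists that did not include the 8. Of 18 further precursor markers, 1 was called lower in HD than in Ctr, the adhesion molecule Dscam at -0.30 (SE 0.09; limma unadjusted p = 0.00409, adjusted p = 0.251), a share near the 5.09% of all genes called there. None was called in LD, and 0 of 18 passed an adjusted p under 0.05 in any comparison (with limma, 2 of 18 had an unadjusted p under 0.05 in HD against Ctr). Tnr, a matrix glycoprotein, was at -0.46 (SE 0.21; limma unadjusted p = 0.0391, adjusted p = 0.559) and the proteoglycan gene Vcan at 0.36 (SE 0.18; limma unadjusted p = 0.0547, adjusted p = 0.615) in the same comparison, without a call. Dscam was also the 1 of 18 called in HD against LD, at -0.23 (SE 0.09; limma unadjusted p = 0.0238, adjusted p = 0.6), where 4.49% of all genes were called. In Se_HD against Se_Ctr 2 of 18 were called, where 2.06% of all genes were called. Vcan was higher, at 0.26 (SE 0.09; limma unadjusted p = 0.00953, adjusted p = 1), and Xylt1 lower, at -0.85 (SE 0.36; limma unadjusted p = 0.0273, adjusted p = 1), although the Se_HD mice of Xylt1, from 18.2 to 97.3, overlapped the Se_Ctr mice, from 50.3 to 92.7 (exact permutation p = 0.111). In Se_LD against Se_Ctr 1 of 18 was called, Snx22 at 0.48 (SE 0.16; limma unadjusted p = 0.00727, adjusted p = 1), where 1.46% of all genes were called. The median log2 difference of the list was 0.03 in LD and 0.10 in HD.

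Myelin genes were called lower in the contrasts with HD. In HD against Ctr 2 of 16 were called, both lower, where 5.09% of all genes were called, and in HD against LD 4 of 16, all lower, where 4.49% were called. Mal, a proteolipid of compact myelin, differed by -0.52 (SE 0.15; limma unadjusted p = 0.00235, adjusted p = 0.199) in HD against Ctr and by -0.52 (SE 0.15; limma unadjusted p = 0.00223, adjusted p = 0.271) in HD against LD. Its mean was 947 ± 215 normalized counts (SD, n = 5) in HD, with mice from 649 to 1157, and 1349 ± 255 in Ctr, from 909 to 1550.4. The LD mice, from 1241 to 1388, did not overlap with HD (exact permutation p = 0.00794, the smallest possible), as was the case for 1.34% of all genes. The tetraspanin gene Tspan2 was called lower, at -0.29 (SE 0.10; limma unadjusted p = 0.009, adjusted p = 0.349) in HD against Ctr. Mog, a glycoprotein of the outer myelin surface, was at -0.28 (SE 0.13; limma unadjusted p = 0.0517, adjusted p = 0.605), which was not called. Fa2h, at -0.51, and Opalin, at -0.53, completed the 4 calls against LD. The median of the 16 genes was 0.10 in LD and -0.14 in HD, with 15 of 16 positive in LD and 3 of 16 in HD. In Se_HD against Se_Ctr no myelin gene was called (limma, 0 of 16 also at an unadjusted p under 0.05), and for Mal the interaction of selenium with HD was 0.48 (SE 0.23; limma unadjusted p = 0.045, adjusted p = 0.997). In Se_HD against Se_LD 0 of 16 were called (limma, 0 of 16 also at an unadjusted p under 0.05), and 0 of 16 differences were positive. Markers of neighbouring tissue differed in the same contrast, where 2.47% of all genes were called. Of 6 thalamus markers 3 were called lower, with a median of -0.69 and 0 of 6 positive, and of 8 fibroblast and meninges markers 5 were called higher, with a median of 0.99 and 8 of 8 positive. In HD against LD, which holds the 4 myelin calls, 0 of 6 thalamus markers were called (limma, 0 of 6 also at an unadjusted p under 0.05), but 0 of 6 were positive, with a median of -0.44, and 11 of 12 microglia markers were called higher. The part of other tissue or cells in the myelin values was not tested. In Se_HD against HD Mal was called higher, at 0.33 (SE 0.16; limma unadjusted p = 0.0488, adjusted p = 0.594). None of the myelin calls passed an adjusted p under 0.05.

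Of 12 genes of the newly formed stage in the table, 0 were called in LD or HD (0 of 12 also at an unadjusted limma p under 0.05), with Itpr2 at 0.21, Sema5a at -0.27 and Mpzl1 at -0.21 in HD against Ctr. In Se_LD against Se_Ctr 1 of 12 was called, Tcf7l2 at 0.98 (SE 0.42; limma unadjusted p = 0.029, adjusted p = 1), where 1.46% of all genes were called. The Se_LD mice of Tcf7l2 ranged from 58.5 to 558 normalized counts, with a mean of 264 ± 208 (SD, n = 5), and overlapped the Se_Ctr mice, from 74.5 to 178 (exact permutation p = 0.167). In the same comparison 3 of 6 markers of the thalamus, a region whose neurons also use Tcf7l2, were called higher, and the part of that tissue was not tested. In Se_HD against Se_Ctr 1 of 12 was called, Bmp4 at 0.69 (SE 0.31; limma unadjusted p = 0.0354, adjusted p = 1), with an exact permutation p of 0.0556, where 2.06% of all genes were called. In Se_HD against Se_LD 1 of 12 was called higher and 1 of 12 lower, where 2.47% of all genes were called. Of 13 further transcription factors of the lineage 0 were called in the 4 comparisons with a control (0 of 13 also at an unadjusted limma p under 0.05 in each of them), with Nkx6-2 at 0.56, Nfib at 0.23 and Sox8 at -0.20 in HD against Ctr. Among 12 genes that restrain differentiation, Gpr37 was called lower in HD, at -0.30 (SE 0.12; limma unadjusted p = 0.0161, adjusted p = 0.436), and the Notch target Hes1 had 0.44 (SE 0.19; limma unadjusted p = 0.0342, adjusted p = 0.537) without a call, as did the receptor Notch1 with 0.24. Notch1 was called lower in Se_HD than in HD, at -0.46 (SE 0.13; limma unadjusted p = 0.00116, adjusted p = 0.167), and in the interaction of selenium with HD, at -0.45 (SE 0.18; limma unadjusted p = 0.0196, adjusted p = 0.997), where 3.59% and 2.38% of all genes were called. In Se_HD against HD it was 1 of 12 of its list, and the other lists gave 1 of 12 in the newly formed stage (Itpr2 at -0.28), 1 of 19 in PDGF and FGF signalling (Fgf2 at -1.25) and 2 of 16 among surface and extracellular regulators (Cxcr4 at -0.61 and Lgals3 at -1.08). Glial markers were called lower in that contrast too, 11 of 12 of microglia, of which 9 passed an adjusted p under 0.05, and 6 of 10 of astrocytes, of which 2 passed. Their part in these calls was not tested. In HD against LD 2 of the 12 were called, both lower, where 4.49% of all genes were called, Lingo1 at -0.39 and Gpr37 at -0.28. Among 19 genes of PDGF and FGF signalling, 3 were called higher in HD than in Ctr, where 5.09% of all genes were called, while the median of the list was -0.03 and only 6 of 19 differences were positive. The calls were the ligands Pdgfb, at 0.50 (SE 0.14; limma unadjusted p = 0.00218, adjusted p = 0.194), Pdgfd, at 0.50 (SE 0.20; limma unadjusted p = 0.0195, adjusted p = 0.461), and Fgf2, at 1.43 (SE 0.39; limma unadjusted p = 0.00155, adjusted p = 0.175), a gene with a mean of 11.4 normalized counts in HD and 3.95 in Ctr. Etv5, a transcription factor downstream of FGF receptors, was at -0.25 (SE 0.13; limma unadjusted p = 0.0772, adjusted p = 0.671), without a call. In HD against LD 2 of the 19 were called, both higher, where 4.49% of all genes were called. Among 16 surface and extracellular regulators 2 were called in HD against Ctr, against the same 5.09%. Cxcr4 was called higher in HD, at 0.81 (SE 0.26; limma unadjusted p = 0.00536, adjusted p = 0.273), and so was Lgals3, at 0.99 (SE 0.42; limma unadjusted p = 0.0289, adjusted p = 0.516), with HD mice from 6.11 to 56.3 normalized counts and Ctr mice from 6.76 to 8.45. Lpar1, at -0.23, and Ntrk2, at 0.16, were not called. In HD against LD 2 of the 16 were called, both higher, where 4.49% of all genes were called. In Se_LD against Se_Ctr 2 of 16 were called, Lgals3 at 1.03 (SE 0.36; limma unadjusted p = 0.0101, adjusted p = 1) and Bdnf at -0.23 (SE 0.10; limma unadjusted p = 0.0338, adjusted p = 1), where 1.46% of all genes were called. In Se_HD against the same Se_Ctr mice 1 of 16 was called, Bdnf at -0.24 (SE 0.10; limma unadjusted p = 0.0312, adjusted p = 1), where 2.06% were called. Fgf2 and Lgals3 had means under 10 normalized counts over all mice. These 2 genes, and Bdnf, Lingo1, Fa2h, Opalin, Xylt1, Snx22, Tcf7l2 and Bmp4, were outside the rule for naming genes and were named after their values were seen. Cxcr4 and Lgals3 are also expressed by microglia, whose markers were higher in the same HD mice, and the part of microglia in these values was not tested.

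Taken over all 30 mice, the 8 genes did not vary as a block from mouse to mouse. Each value was taken on the log2 scale as the deviation from its group mean, and relations were computed over the 30 mice with permutations inside the groups, 116 relations in all, of which 28 were between members. Only 2 of the 28 pairs passed an adjusted p under 0.05. Cspg4 and Olig2 varied together, with Pearson r = 0.73 (permutation p = 0.00029, adjusted p = 0.00673) and Spearman rho = 0.70 (permutation p = 0.0002, adjusted p = 0.00851). Within diets r was 0.81 among the 15 mice of Ctr, LD and HD and 0.64 among the 15 mice of the selenium groups, and without the 2 mice farthest from the median of Cspg4 it was 0.71. The library numbers form runs of 6 with 1 mouse of every group in each. In the third run Cspg4 and Olig2 were above their group means in 6 of 6 mice, and in the first run in 1 of 6. With the means of these runs removed as well, r was 0.63, and the permutations, made inside groups, do not account for the runs. Olig1 and Sox10 were the other pair, with Pearson r = 0.72 (permutation p = 0.00027, adjusted p = 0.00673) and Spearman rho = 0.65 (permutation p = 0.00072, adjusted p = 0.0209). Here r was 0.59 among the 15 mice of Ctr, LD and HD and 0.87 among the 15 mice of the selenium groups, 0.69 without the 2 farthest mice, and 0.72 with the means of the runs removed. The neighbours Olig1 and Olig2 gave r = 0.18 (permutation p = 0.453), with -0.12 in the mice of Ctr, LD and HD and 0.56 in the selenium mice. Between Olig1, Olig2, Sox10 and Enpp6, r ran from -0.25 to 0.59 and from 0.47 to 0.87 in the same order. Gpr17 and Olig2 gave 0.68 and -0.57. These values within diets were picked after they were seen, and the diets were not compared by a test. Pdgfra and Cspg4, both markers of the precursor stage, gave r = -0.06 over the 30 mice (permutation p = 0.734). Pdgfra had a negative r with each of the other 7 members, from -0.39 to -0.03, none of which passed.

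**Figure D4:**
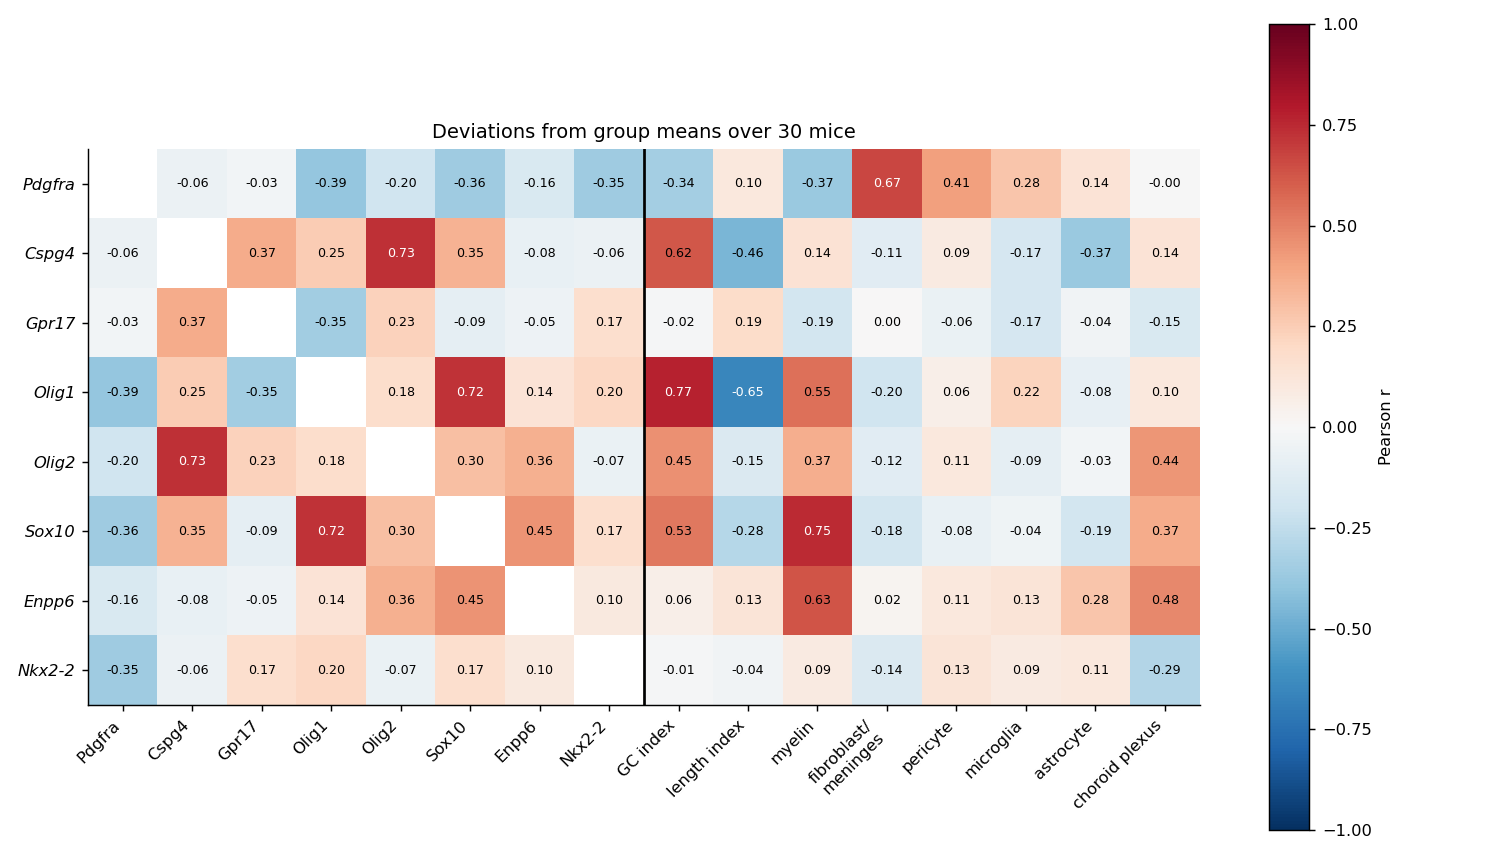
Pearson r of deviations from the group means over 30 mice, between the 8 genes (left of the line) and between each gene and measures of the library (right of the line: GC index, length index and mean log2 levels of marker lists). The darkest cells among gene pairs are Cspg4 with Olig2 (0.73) and Olig1 with Sox10 (0.72).

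Olig1 was the member that varied with the base composition of the library after adjustment. A GC index was formed for each library as the median log2 deviation of the genes in the most GC-rich 20% of exon GC content minus that of the least GC-rich 20%. It ran from -0.41 in LD replicate 5 to 0.31 in Se_LD replicate 2, with SDs inside groups of 0.28 in LD and 0.07 in Se_Ctr. Olig1, with 60.8% GC in its exons, followed this index with Pearson r = 0.77 (permutation p = 2e-05, adjusted p = 0.00232) and Spearman rho = 0.77 (permutation p = 1e-05, adjusted p = 0.00116). The permutation p of 1e-05 is the smallest these permutations can give. The value was 0.78 among the 15 mice of Ctr, LD and HD and 0.83 among the 15 mice of the selenium groups, and 0.77 without the 2 farthest mice. Olig1 is also the shortest of the 8 in exon length, and with the same index made for length it gave Pearson r = -0.65 (permutation p = 6e-05, adjusted p = 0.00348) and Spearman rho = -0.68 (permutation p = 0.00022, adjusted p = 0.00851). Without the 2 mice farthest in length index r was -0.62, and within diets it was -0.79 among the 15 mice of Ctr, LD and HD and -0.40 among the 15 mice of the selenium groups. Cspg4 (r = 0.62, permutation p = 0.00506, adjusted p = 0.0648) and Sox10 (r = 0.53, permutation p = 0.00447, adjusted p = 0.0648), with 59.2% and 61.7% GC, did not pass after adjustment. Olig2 gave r = 0.45 (adjusted permutation p = 0.395), and Gpr17, with 53.4% GC, gave r = -0.02. Among the 15 mice of Ctr, LD and HD r was 0.37 for Olig2 and 0.17 for Gpr17. Among the 15 mice of the selenium groups it was 0.68 for Olig2 and -0.57 for Gpr17. With a centring of each library inside bins of exon GC and exon length, r fell to 0.57 for Cspg4 and Olig2 and to 0.52 for Olig1 and Sox10. With the GC index r was then 0.31 for Cspg4, 0.14 for Olig2 and 0.19 for Sox10. Olig1 still gave 0.64 with the GC index and -0.51 with the length index, so the centring did not remove its relation with them. LD replicate 5, the library with the lowest index, was also the lowest LD mouse in Cspg4, Gpr17, Olig2 and Sox10, and in Olig1 together with replicate 2, and the part of base composition in these values was not tested.

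**Figure D5:**
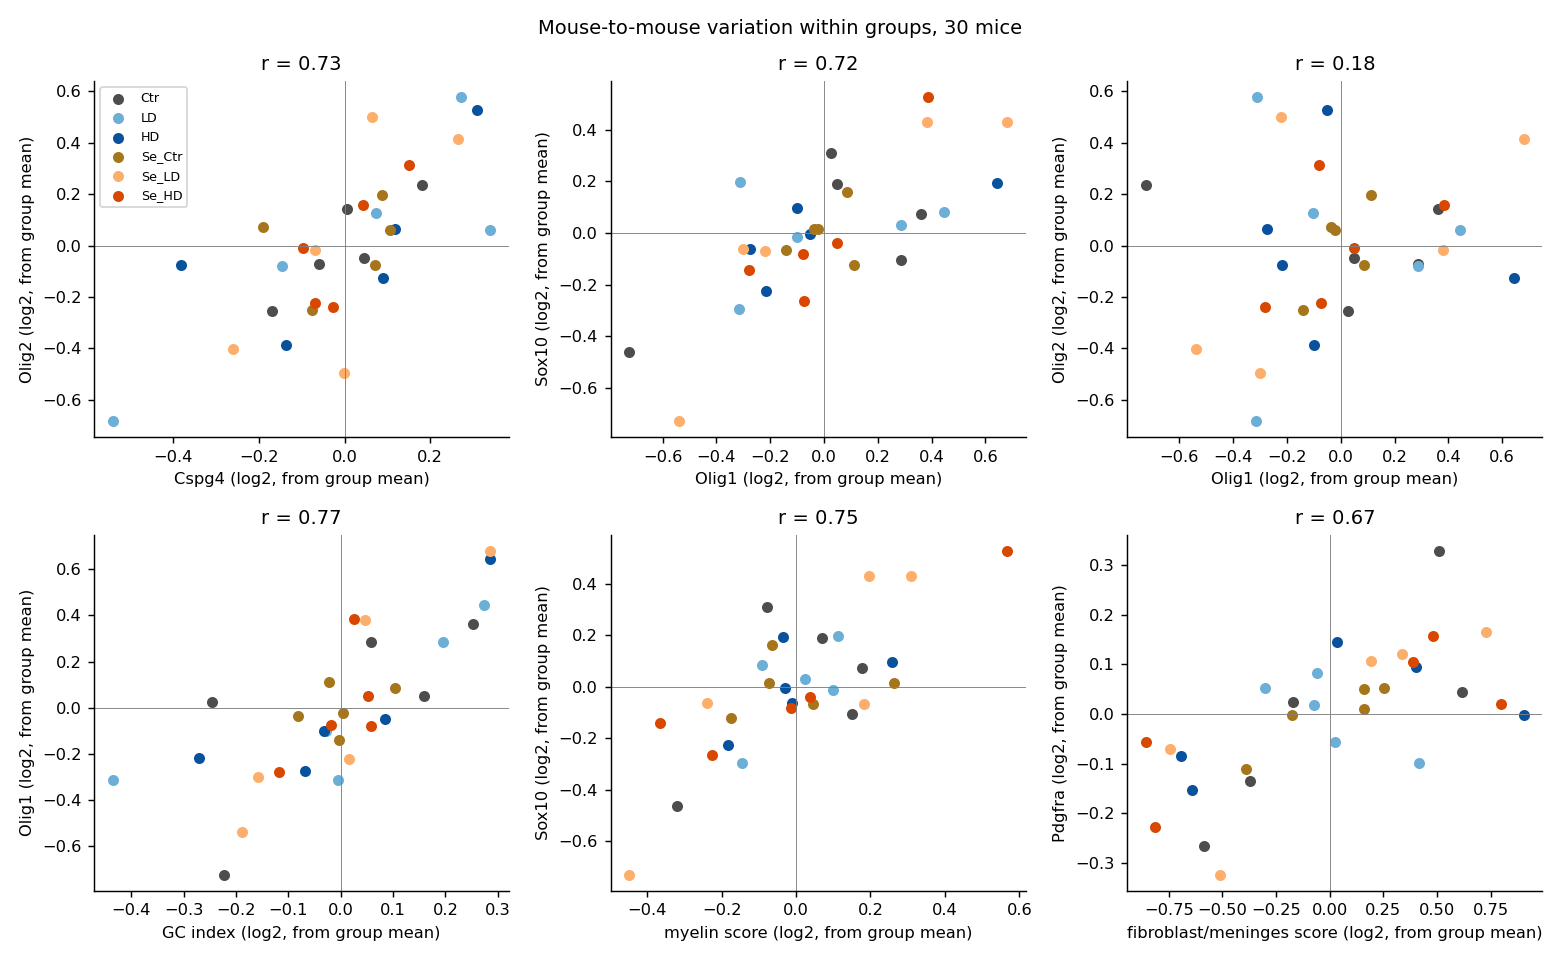
Deviations from the group mean (log2) in 30 mice, coloured by group, for Cspg4 and Olig2, Olig1 and Sox10, Olig1 and Olig2 (top), and for Olig1 against the GC index, Sox10 against the myelin score and Pdgfra against the fibroblast and meninges score (bottom). Over the 30 mice Olig1 rises with Sox10 (r = 0.72) and with the GC index (r = 0.77), while its r with Olig2 is 0.18. Within diets r of Olig1 and Olig2 is -0.12 in the mice of Ctr, LD and HD and 0.56 in the selenium mice.

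Sox10 and Enpp6 were the members that varied with the myelin genes after adjustment. The myelin score, the mean log2 deviation of the 16 myelin genes, was related to Sox10 with Pearson r = 0.75 (permutation p = 0.00026, adjusted p = 0.00673) and Spearman rho = 0.63 (permutation p = 0.00189, adjusted p = 0.0313). Within diets r was 0.57 among the 15 mice of Ctr, LD and HD and 0.82 among the 15 mice of the selenium groups, and 0.61 without the 2 mice farthest in the score. Enpp6 followed the same score with Pearson r = 0.63 (permutation p = 0.00134, adjusted p = 0.0222) and Spearman rho = 0.60 (permutation p = 0.00182, adjusted p = 0.0313). For Enpp6 r was 0.28 among the 15 mice of Ctr, LD and HD and 0.81 among the 15 mice of the selenium groups, and it was 0.54 without the 2 farthest mice. After centring for GC content and length r was 0.67 for Sox10 and 0.67 for Enpp6. Se_HD replicate 2, highest of its group in both genes, had the highest myelin score of all mice (0.55), and Se_LD replicate 5, lowest in Sox10, had -0.33. Olig1 gave r = 0.55 (permutation p = 0.00559, adjusted p = 0.0648), Olig2 0.37 and Nkx2-2 0.09. Pdgfra, Cspg4 and Gpr17 had r of -0.37, 0.14 and -0.19 with the score, and none of these 6 relations passed adjustment.

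Pdgfra instead followed markers of fibroblasts and meninges, with Pearson r = 0.67 (permutation p = 0.00081, adjusted p = 0.0157) and Spearman rho = 0.67 (permutation p = 0.00112, adjusted p = 0.026). Within diets r was 0.55 among the 15 mice of Ctr, LD and HD and 0.78 among the 15 mice of the selenium groups, and 0.73 without the 2 mice farthest in the score. After centring for GC content and length r was 0.59. All 8 of these markers were found in every library, with Dcn between 144 and 771 and Col3a1 between 12.0 and 158 normalized counts. In Se_HD against Se_Ctr, where Pdgfra had its largest difference of the 4 comparisons with a control, 4 of 8 of these markers were called higher, where 2.06% of all genes were called (Col3a1, Col1a1, Lum and Col1a2, at 1.04, 0.71, 0.73 and 0.84). The score of these markers was between -0.69 and -0.04 in Se_Ctr and between -0.39 and 1.27 in Se_HD. These markers too were named after their values were seen, and their part in the level of Pdgfra was not tested. With pericyte markers Pdgfra gave r = 0.41 and Cspg4 r = 0.09, without passing. With the mean level of the further precursor markers Pdgfra gave r = 0.14, Cspg4 0.02 and Gpr17 -0.06, also without passing.

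The genes most like each member over the 30 mice, leaving out those averaging under 50 normalized counts, are given by Pearson r of the same deviations, as a description without a test. Sox10 was most like Itgb4 (r = 0.79), Gpr62 (0.78) and Phldb1 (0.78), and Enpp6 like Sept10 (0.82), Gltp (0.74) and Erbb2ip (0.72). Pdgfra was most like Ppfibp1 (0.75), Psme2 (0.74) and Arhgap6 (0.74). Olig1 stood with Ckb (0.89), Fastk (0.88) and Adprh (0.88), whose exons have 59.9%, 57.6% and 56.5% GC. Olig2 was most like Bahcc1 (0.81), Dhx38 (0.78) and Psmc3 (0.77), and Cspg4 like Zswim1 (0.79), Ints1 (0.77) and Bahcc1 (0.76). Gpr17 and Nkx2-2 had the weakest likenesses, led by Tsc1 (0.71), Prpf3 (0.69) and 1700003M07Rik (0.68) for Gpr17 and by Ap4s1 (0.63), Lhpp (0.63) and Slc25a33 (0.59) for Nkx2-2.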

How the data were processed

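Hippocampal RNA-seq libraries of 30 mice were analysed, with groups taken from the labels. The authors trimmed reads with Trim Galore 0.4.2, aligned them with HISAT2 to NCBIM37, counted them with featureCounts and deposited counts divided by DESeq2 size factors, a linear signal per gene. Dividing out the step of each library returned whole reads for 100% of values (tolerance 0.01), and these were used for depth, edgeR 4.0.16 and DESeq2 1.42.0. Of 21412 identifiers 21326 had a symbol.

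The main test was limma 3.58.1 with trend in R 4.3.3 on log2(value + 1), fitted to all genes with a sum of at least 10, separately for the 3 groups of each diet and over all 30 libraries for comparisons between diets. Fold changes on this scale understate low genes. Exact permutation tests (two-sided, 252 splits) and relations used Python 3.11.15 with scipy 1.17.1. Relations were permuted 100000 times within groups. Scripts were tested on simulated data. From each other list, genes with an adjusted p under 0.05 were named, or otherwise the 3 with the lowest unadjusted p in HD against Ctr and a mean of at least 10, and for each member the 3 genes most like it with a mean of at least 50. The members and lists were chosen with earlier results of these data known. Each library came from its own mouse. Alternatives covered pseudocount, filter, normalization, tool, replicate block, single libraries left out and, added after seeing the data, centring inside 20 bins of exon GC and exon length and, for relations, removal of the means of runs of 6 consecutive library numbers. Positions and exon lengths came from the NCBIM37 annotation. Of the promoter windows searched 3 are shown, and that of 1 gene is not reported here.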

Additional observations from a re-analysis of the deposited data

Results flagged for a closer look

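In 3 of 48 groups of 5 mice 1 mouse stood apart from the others by Dixon's ratio, its gap to the nearest mouse divided by the range of the group, with a critical value of 0.71. Chance gives about 1 in 20 groups, or 2.4 of 48. Olig1 in HD replicate 5 had a ratio of 0.811, at 409.9 normalized counts with the next HD mouse at 253. Sox10 in Se_HD replicate 2 had a ratio of 0.77, at 188 with the next at 127. Enpp6 in the same mouse, Se_HD replicate 2, had a ratio of 0.749, at 88.1 with the next at 54.6, and this mouse also had the highest myelin score of the 30.

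The interaction term of limma for selenium and LD was 0.36 on the log2 scale for Gpr17 (unadjusted p = 0.0277, adjusted p = 0.998), which did not meet the call rule because the F test over the groups did not pass. The difference from the control was -0.18 in LD and 0.18 in Se_LD, and with single mice left out the interaction ran from 0.26 to 0.46, with an unadjusted limma p of up to 0.0866.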

How the results depend on the processing

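The count of lineage genes called stayed at 0 of 8 in every comparison under each other pseudocount, filter, normalization, tool and fit. With single libraries left out it ranged from 0 to 1 for LD against Ctr, HD against LD, Se_LD against Se_Ctr, Se_LD against LD, the interaction of selenium with LD and the F test over the 6 groups, and remained 0 elsewhere. The libraries concerned were LD replicate 2 (Gpr17), LD replicate 5 (Olig2), HD replicate 2 (Gpr17), Se_LD replicate 2 (Gpr17) and Se_LD replicate 5 (Sox10), and the lowest adjusted p among these calls was 0.367. Gpr17 in Se_LD against Se_Ctr lost its unadjusted limma p under 0.05 without the trend and in an ordinary linear model (0.18 in each). That p was also lost with all 30 libraries in 1 fit (0.18) and after centring for GC content and length (0.13). For Gpr17 the interaction of selenium with LD, at 0.31, lost it after that centring, an alternative chosen after seeing the data. In the fit of all 30 libraries 1 of 48 member tests was under 0.05, at an unadjusted limma p of 0.00817 (lowest adjusted p = 0.269). Nkx2-2 in Se_LD had an unadjusted p under 0.05 at a pseudocount of 10 (0.33), without the trend and in the ordinary model (0.53 in both). With limma it also did without Se_Ctr replicate 2 (0.60, unadjusted p = 0.0486) or 3 (0.68, 0.0208) or Se_LD replicate 4 (0.68, 0.022). Pdgfra in Se_HD did so without Se_HD replicate 3 (0.19, limma unadjusted p = 0.0437). None of these met the call rule. The sign turned for differences near 0: Sox10 in LD (edgeR -0.0167, DESeq2 -0.0208, centring -0.0338), Nkx2-2 in HD (quantile normalization -0.0013, centring -0.0338), Olig1 in Se_LD (edgeR 0.0112) and Olig1 in Se_HD (edgeR 0.0087, DESeq2 0.00598). The cause was not tested. The labels give the groups no shared replicate numbers, and a fit with sets of consecutive library numbers as a replicate block called 0 of 8 in every comparison, with 0.36 for the interaction of Gpr17.

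Leaving out single libraries against Ctr gave -0.0356 to 0.113 for Pdgfra in LD, -0.114 to 0.0792 for Sox10 in LD, -0.238 to 0.109 for Nkx2-2 in LD, -0.0682 to 0.203 for Olig1 in HD, -0.177 to 0.0164 for Sox10 in HD and -0.121 to 0.236 for Nkx2-2 in HD. Against Se_Ctr it gave -0.000578 to 0.122 for Pdgfra, -0.242 to 0.0627 for Olig1 and -0.0251 to 0.224 for Olig2 in Se_LD, and -0.0264 to 0.0478 for Cspg4, -0.105 to 0.0608 for Olig1 and -0.0225 to 0.175 for Sox10 in Se_HD. Without a turn of sign, Gpr17 ran from -0.27 to -0.07 and Olig1 from 0.08 to 0.35 in LD against Ctr, and Gpr17 from 0.12 to 0.23 in Se_LD against Se_Ctr. Likewise LD against Ctr ran from 0.03 to 0.26 for Cspg4, 0.16 to 0.47 for Olig2 and 0.28 to 0.50 for Enpp6, and HD against Ctr from 0.05 to 0.20 for Pdgfra, 0.03 to 0.21 for Cspg4, 0.08 to 0.18 for Gpr17, 0.09 to 0.32 for Olig2 and 0.20 to 0.44 for Enpp6. Se_LD against Se_Ctr ran from 0.05 to 0.18 for Cspg4, 0.12 to 0.41 for Sox10, 0.12 to 0.39 for Enpp6 and 0.43 to 0.68 for Nkx2-2, and Se_HD against Se_Ctr from 0.10 to 0.19 for Pdgfra, 0.10 to 0.16 for Gpr17, 0.03 to 0.17 for Olig2, 0.07 to 0.34 for Enpp6 and 0.03 to 0.29 for Nkx2-2. With the means of runs of 6 library numbers removed, chosen after seeing the data, the relations that had passed adjustment had r between 0.63 and 0.78 in size. Nkx2-2 has the fewest reads, 6 to 26 per library.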
